A study of Mus musculus with 8 samples.

Results

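The genes described here are 35 mouse genes of glycolysis and of the response to low oxygen, covering sugar and lactate transport, the steps from glucose to lactate, oxygen sensing and hypoxia-response targets. They were chosen by symbol, with earlier results of these data known, so shares set against all probe sets below are descriptions only. Of the 35 genes, 29 had a named probe set on the arrays, 37 probe sets in all with 30 distinct sets of values, among 22523 probe sets and 15653 named genes. Where a gene had several probe sets, the brightest was used. No probe set carried the names Gapdh, Pgk1, Pgam1, Eno1, Ldha or Bnip3, and these 6 genes were not analysed here, apart from the Affymetrix control probe sets for Gapdh. Names were found for 18294 of the 22523 probe sets, so an unnamed probe set may still read a gene without a named one.

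The study asked how gene expression differs between cells that renew themselves asymmetrically (ASYM), with 1 daughter leaving the cycle, and cells that divide symmetrically (SYM). RNA from 8 cultures of 3 mouse lines was hybridized to Affymetrix arrays, and each value is a log2 level. By the study's account, all 3 lines have a p53-null fetal fibroblast background. Ind-8 (ASYM, 3 arrays) carries a wild-type mouse p53 cDNA that zinc switches on, and Con-3 (SYM, 3 arrays) has none and stays p53-null. The line tI-3 (p53SYM, 2 arrays) is an Ind-8 derivative that also expresses the IMPDH II cDNA constitutively. All 8 cultures received 65 µM ZnCl2 for 48 h and 5 µg/ml puromycin, and tI-3 also received G418, which the labels put at 1 µg/ml and the study's methods at another dose. The labels name Con-3 as the parent of Ind-8, whereas the study's methods call it a vector-control line. The p53 cDNA is under a modified metallothionein promoter. Each state is 1 cloned line, so state and clone cannot be told apart. As tI-3 derives from Ind-8, it may share traits of that clone, and the 2 are not independent lines with p53. The replicates were separate cultures of a line, and the p-values measure the spread between these cultures.

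Glycolysis splits glucose into pyruvate and yields ATP without oxygen, and lactate dehydrogenase turns pyruvate into lactate. When oxygen is low, the prolyl hydroxylases (Egln genes) no longer mark the HIF alpha subunits for destruction, and HIF then drives glucose transporters, glycolytic enzymes and other targets. In mouse fibroblasts p53 is known to induce Cdkn1a and Mdm2, and Ddit4 is known as a target of both p53 and HIF.

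Of the label genes, Cdkn1a and Mdm2 were called in all 3 comparisons. Cdkn1a, a p53 target that blocks the cell cycle, stood at 9.70, 9.70 and 9.59 in Ind-8, at 5.73, 5.81 and 6.03 in Con-3 and at 7.55 and 7.33 in tI-3. The lines did not overlap, and tI-3 lay between the other lines. Cdkn1a was higher in Ind-8 than in Con-3 by 3.81 ± 0.11 (SE; limma, Benjamini-Hochberg adjusted p = 1.91e-08) and higher than in tI-3 by 2.22 ± 0.12 (adjusted p = 3.58e-06). Mdm2, the p53 ubiquitin ligase, was higher in Ind-8 by 2.00 ± 0.13 against Con-3 and by 1.28 ± 0.15 against tI-3. The Trp53 probe set was higher in Ind-8 than in Con-3 by 0.53 ± 0.09 and in tI-3 than in Con-3 by 0.39 ± 0.10, while Ind-8 and tI-3 overlapped (0.14, adjusted p = 0.282); the call in tI-3 ended without tI-3 replicate 2 (adjusted p = 0.109) and with the mean of the hybridization controls as a covariate (0.0616). Impdh2 averaged 12.19 in Ind-8, 12.53 in Con-3 and 12.36 in tI-3, which lay between the other lines without overlap. It was lower in Ind-8 than in Con-3 by a log2 change of -0.34 ± 0.08 (adjusted p = 0.0108) and was not called in Ind-8 against tI-3 (-0.17, adjusted p = 0.163) or in tI-3 against Con-3 (-0.17, adjusted p = 0.182). Whether its probes read the transgene is not known. Mt1, a metallothionein that zinc induces, averaged 13.88, 13.73 and 13.62 in Ind-8, Con-3 and tI-3 and was not called in any comparison. Mt2 was lower in tI-3 than in Con-3 by a log2 change of -0.39 ± 0.11, a call that ended without Con-3 replicate 2 (adjusted p = 0.0867) or tI-3 replicate 2 (adjusted p = 0.217), with the hybridization-control covariate (0.129) and after quantile normalization again (0.253).

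The study describes the lines as derived from fetal fibroblasts, which was checked against 8 markers, all of them with a probe set. Col1a2, which encodes a collagen I chain, averaged 12.28, 12.05 and 12.03 in Ind-8, Con-3 and tI-3, and vimentin (Vim) averaged 14.05, 13.88 and 13.65. Thy1 was at 3.88 in Ind-8 and 4.19 in Con-3, under the dim end of the arrays (4.30, the 25th percentile of probe-set means), and at 4.56 in tI-3. By limma, 2 of the 8 were called higher and 1 lower in Ind-8 against Con-3, 4 and 1 in Ind-8 against tI-3, and 3 and 2 in tI-3 against Con-3. Col3a1, a collagen III gene, averaged 8.80 in Ind-8, 9.07 in Con-3 and 6.38 in tI-3. It was lower in tI-3 than in Con-3 by a log2 change of -2.68 ± 0.37 (limma, Benjamini-Hochberg adjusted p = 0.000621) and higher in Ind-8 than in tI-3 by 2.42 ± 0.37 (adjusted p = 0.0013). Col1a1, for the other collagen I chain, averaged 12.34, 11.91 and 10.85 in the 3 lines. Against tI-3, Ind-8 was higher by 1.49 ± 0.21 (adjusted p = 0.000907), and tI-3 was lower than Con-3 by a log2 change of -1.06 ± 0.21 (adjusted p = 0.00474), a call that ended without tI-3 replicate 1 (0.0518). Col1a1 was called in Ind-8 against Con-3 (0.0482) with the hybridization-control covariate. Fn1 (fibronectin) and Pdgfrb were higher in Ind-8 than in Con-3 by 0.70 ± 0.08 and 0.38 ± 0.09, and the call of Pdgfrb ended with the covariate (0.0574). Thy1, at the dim end, was lower in Ind-8 than in tI-3, at least 1.19-fold, and the covariate ended that call (0.096). The other marker calls ended in more fits. Thy1 was called lower in Ind-8 than in Con-3 with both means under the dim end, so no size is given, and that call was lost without any 1 of the 8 arrays (0.052 to 0.149). It was higher in tI-3 than in Con-3, at least 1.19-fold, lost without Con-3 replicate 1 or 2 or either tI-3 array (0.057 to 0.165). The covariate and quantile normalization again ended the calls of Thy1 against Con-3, and also that of Vim in Ind-8 against tI-3 (0.39), which was lost without tI-3 replicate 2 as well (0.116). Fn1 had 0.42 in Ind-8 against tI-3, lost without tI-3 replicate 1 (0.0503) or with the covariate (0.131), and 0.28 in tI-3 against Con-3, lost without any 1 of the 8 arrays (0.0569 to 0.235). Pdgfrb had 0.33 in tI-3 against Con-3, lost without Con-3 replicate 1 or 3 or either tI-3 array (0.0584 to 0.121).

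Of 18 markers of epithelial, endothelial, blood, muscle and neural cells, 17 had a named probe set, and their line means ran from 3.50 to 6.60. Of these 17, 10 were at or under the dim end in Ind-8, 10 in Con-3 and 8 in tI-3. Their mean over the 17 genes was 4.40, 4.33 and 4.44 in Ind-8, 4.36, 4.52 and 4.58 in Con-3, and 4.54 and 4.60 in tI-3. The highest line mean was that of the muscle gene desmin (Des) in Ind-8, at 5.93, and of the endothelial receptor gene Kdr in Con-3 and tI-3, at 6.16 and 6.60. Kdr averaged 5.84 in Ind-8. Calls were made for 3 of these markers. Kdr was lower in Ind-8 than in tI-3 by a log2 change of -0.76 ± 0.11 (limma, Benjamini-Hochberg adjusted p = 0.000877) and than in Con-3 by -0.32 ± 0.10 (adjusted p = 0.0377), and higher in tI-3 than in Con-3 by 0.44 ± 0.11 (adjusted p = 0.0133). The second call ended without any 1 Ind-8 array or Con-3 replicate 1 or 3 (0.0505 to 0.124), and the third without Con-3 replicate 2 (0.0516) or tI-3 replicate 2 (0.124). Csf1r, of macrophages, had log2 changes of -0.44 ± 0.10 in Ind-8 against tI-3, lost without tI-3 replicate 1 (0.0575) or 2 (0.0598), and of 0.33 in tI-3 against Con-3, lost without Ind-8 replicate 3, Con-3 replicate 1 or 2 or either tI-3 array (0.0531 to 0.154). The neural tubulin gene Tubb3 averaged 4.18, 4.31 and 3.79 in Ind-8, Con-3 and tI-3, with Ind-8 and tI-3 under the dim end. It was called higher in Ind-8 than in tI-3, for which no size is given, lost without Ind-8 replicate 1 or 3, Con-3 replicate 2 or either tI-3 array (0.0531 to 0.204), and lower in tI-3 than in Con-3, at least 1.01-fold, lost without tI-3 replicate 1 (0.0902). With the hybridization-control covariate only the last of these calls stayed. The part of other cell types in the results below was not tested.

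Some arrays stood apart. The 18S rRNA control probe sets averaged 10.63 on Con-3 replicate 3 and between 5.58 and 6.46 on the other arrays. The 14 hybridization-control probe sets averaged 9.04, 8.98 and 9.03 in Ind-8, 9.05, 9.16 and 9.62 in Con-3, and 9.43 and 9.71 in tI-3. The interquartile range of all probe sets was 4.14, 4.11 and 4.04 in Ind-8, 4.07, 4.03 and 3.88 in Con-3, and 3.78 and 3.69 in tI-3. Both tI-3 arrays and Con-3 replicate 3 had brighter hybridization controls and a narrower spread than the other arrays. Ind-8 and tI-3 did not overlap in these controls. As a covariate they therefore ran largely with line in Ind-8 against tI-3. A call lost there with the covariate does not tell array level from line. The Gapdh controls, read at 3 positions of the transcript of this glycolytic dehydrogenase, averaged 14.12, 14.10 and 14.15 in Ind-8, 14.07, 14.09 and 14.10 in Con-3, and 13.97 and 13.67 in tI-3. The actin controls averaged 14.48 and 14.12 in tI-3 and between 14.29 and 14.45 elsewhere, so tI-3 replicate 2 was the lowest array for both. The 3′ minus 5′ difference ran from -0.21 to -0.11 for Gapdh and from 0.06 to 0.19 for actin. Without Con-3 replicate 3, 6 genes were called higher and 3 lower in Ind-8 against Con-3, with 3650 probe sets called in all, and 1 higher and 7 lower in tI-3 against Con-3. Without tI-3 replicate 2, 4 genes were called higher in Ind-8 against tI-3 in place of 7, and 2781 probe sets in place of 7009.

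**Figure D1:**
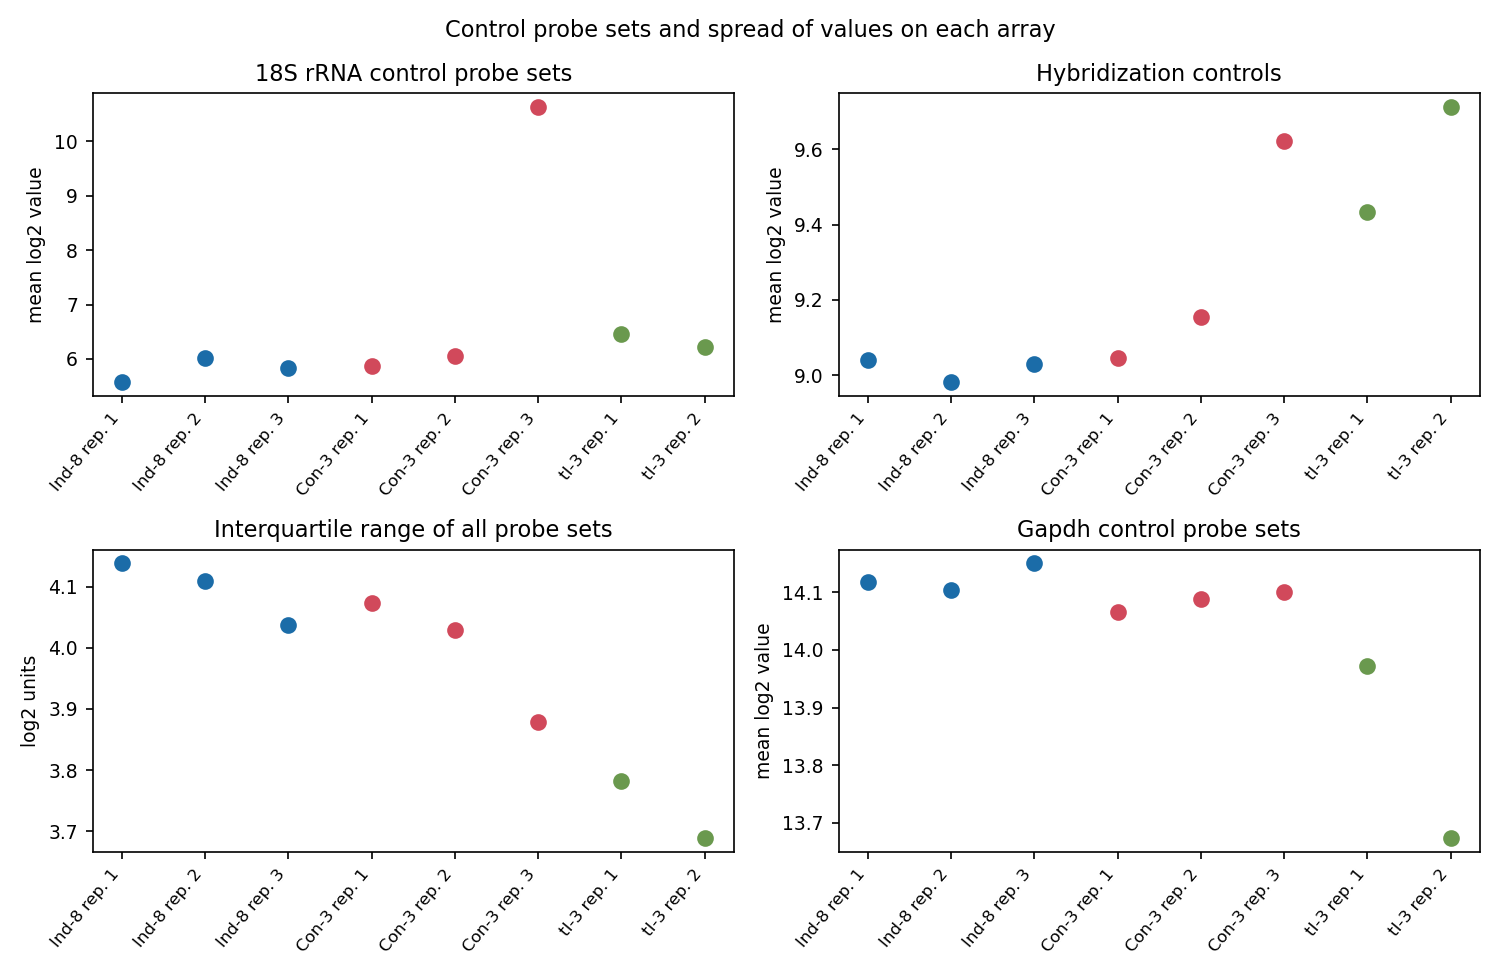
Level of the array controls and interquartile range of all probe sets (log2) on each of the 8 arrays, with 1 point per array. The 18S rRNA controls reach 10.63 on Con-3 replicate 3, and the hybridization controls reach 9.71 on tI-3 replicate 2.

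Ind-8 and Con-3 differ in p53 and in self-renewal state (ASYM and SYM), which cannot be told apart here. In Ind-8 against Con-3, the neuron-type enolase Eno2, the stress-response gene Ddit4 and the glucose transporter gene Slc2a3 were up-regulated 5.00-fold, 2.74-fold and 2.19-fold. The prolyl hydroxylase Egln3, the vasodilator peptide gene Adm and the platelet-type phosphofructokinase Pfkp were down-regulated. Smaller rises were found for Hk1, Pfkm, Tpi1 and Ldhb. In all, 10 of 29 genes were called (limma, adjusted p under 0.05), 7 higher and 3 lower, which is 24.1% and 10.3% of the genes. Over all 22523 probe sets, 10.9% were called higher and 11.0% lower. The members are 1 probe set per gene while the background counts every probe set. The background also holds the dim 25% of probe sets, whereas only Egln3 of the 29 genes had a line mean at the dim end. The shares were not matched for brightness. The median log2 change was -0.01 over the 29 genes and -0.06 over all probe sets. A change of 1 or more was found in 5 genes and in 472 probe sets. The rank product called 3 genes higher and 3 lower, 20.7% of the 29, against 3.65% of all probe sets. When the mean of the hybridization controls was fitted as a covariate, the calls of Hk1, Pfkm and Tpi1 ended and Higd1a became called lower (-0.41 in place of -0.24, adjusted p = 0.032). That fit gave 4 genes higher and 4 lower, with 3062 probe sets called in place of 4942. After the arrays were quantile-normalized again 5 genes were lower, with Hif1a and Egln1 added. In these bulk cultures, fewer cells with a transcript and less RNA per cell cannot be told apart.

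In Ind-8 against tI-3, which both carry the p53 cDNA and of which tI-3 alone carries the IMPDH II cDNA and received G418, Slc2a3 and Ddit4 were each up-regulated 2.66-fold. Hk2, Hk1, Pfkfb4, Egln1 and Slc2a1 were higher by 0.65 or less on the log2 scale. These are 7 genes higher, 24.1% of the 29, against 15.6% of all probe sets called higher. By limma 0 genes were lower, with 1 at an unadjusted p under 0.05 and 0 by the rank product, whereas 15.5% of all probe sets were lower. The median log2 change was 0.19 over the genes and -0.06 over all probe sets. The rank product called 2 genes, both higher, 6.90% of the 29 against 2.06% of all probe sets. A change of 1 or more was found in 2 genes and 688 probe sets. The count of 7 became 4 without Ind-8 replicate 1 and 4 without tI-3 replicate 2. When the mean of the hybridization controls entered the fit as a covariate, it became 2 (Slc2a3 and Ddit4), and 1020 probe sets in place of 7009 were called in all. These controls separate the 2 lines, so array level and line are hard to tell apart in that fit. The count was 4 (Slc2a3, Hk2, Ddit4 and Aldoc) after the arrays were quantile-normalized again and 11 with a trend in the prior variance.

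The symmetric lines tI-3 and Con-3 differ in p53, in the IMPDH II cDNA and in G418, which cannot be told apart here. In tI-3 against Con-3, Eno2 was up-regulated 3.39-fold and was the only 1 of the 29 genes called higher. Egln3, Adm, Hk2, Pfkp, Egln1, Slc2a1 and Pfkl were down-regulated. The 1 gene higher is 3.45% of the 29 and the 7 lower are 24.1%, against 10.2% and 15.1% of all probe sets. The median log2 change was -0.17 over the genes and 0.04 over all probe sets. The rank product called 1 gene higher and 2 lower, 10.3% of the 29 against 2.31% of all probe sets. A change of 1 or more was found in 3 genes and 743 probe sets. The call of Pfkl ended with the hybridization-control covariate and after quantile normalization again, and in both Aldoc became called lower, so that the count stayed at 7. The 1 gene higher became 2 with a trend in the prior and 2 after quantile normalization again, with Gpi1 added. The 3 comparisons share arrays pairwise, so their counts are not independent, and the differences between comparisons were not tested. Over the 3 comparisons, 14 of the 29 genes (48.3%) were not called in any, and 53.6% of all probe sets were not.

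**Figure D2:**
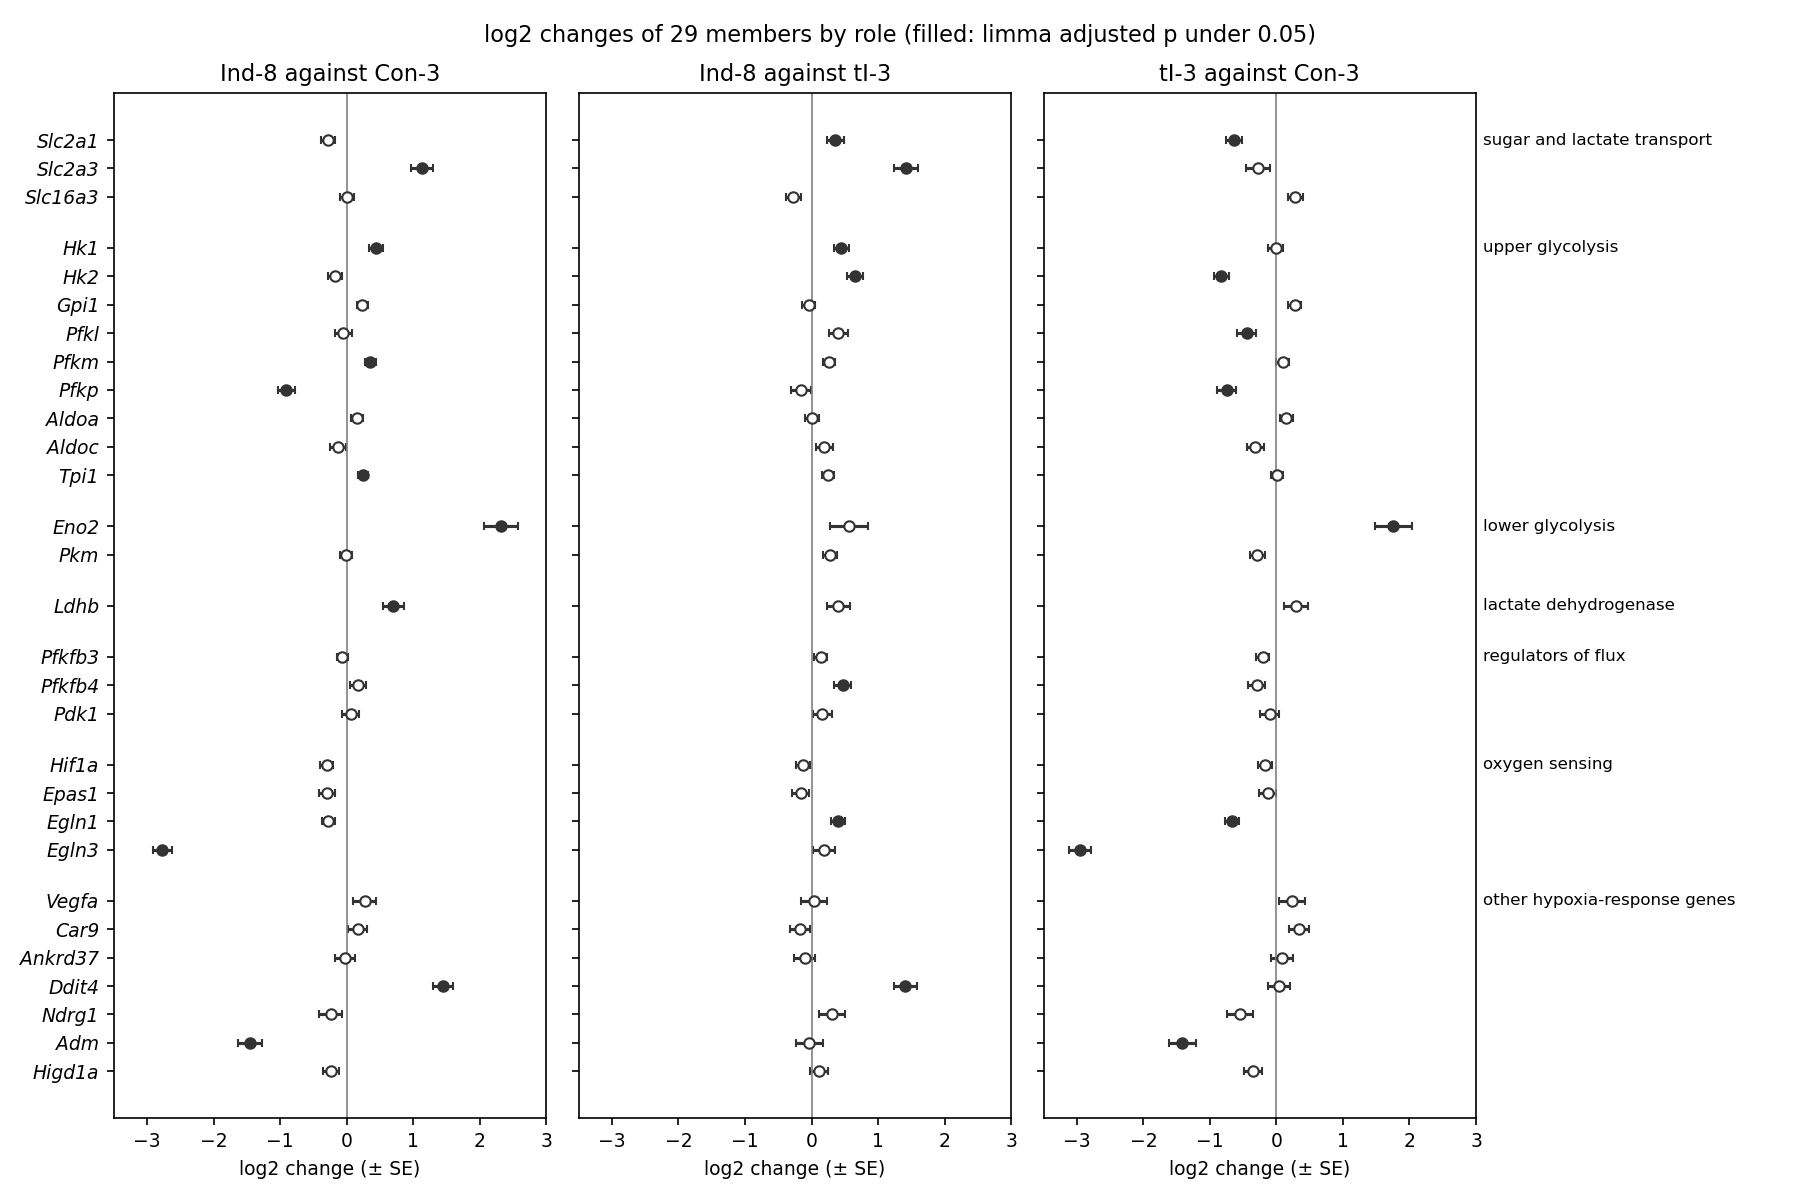
Log2 change and SE of each of the 29 genes in the 3 comparisons, ordered by role, with calls at adjusted p under 0.05 as filled points. Eno2 stands at 2.32 in Ind-8 against Con-3, and Egln3, with Ind-8 at the dim end, is at least 6.5-fold lower there.

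Of the 3 transport genes, Slc2a3 (GLUT3, a high-affinity glucose transporter) differed most in both comparisons of Ind-8. Its level was 5.70, 6.36 and 5.87 in Ind-8, 4.67, 5.01 and 4.85 in Con-3, and 4.66 and 4.47 in tI-3. All Ind-8 arrays lay above all others, and tI-3 and Con-3 nearly met at 4.66 and 4.67. Slc2a3 was higher by 1.13 ± 0.16 against Con-3 (limma, Benjamini-Hochberg adjusted p = 0.000932) and by 1.41 ± 0.18 against tI-3 (adjusted p = 0.000513). The difference of tI-3 from Con-3, -0.28 ± 0.18, was not called (adjusted p = 0.29). Slc2a1 (GLUT1, the widespread glucose transporter) was lower in tI-3 than in Con-3 by a log2 change of -0.64 ± 0.12 (limma, Benjamini-Hochberg adjusted p = 0.00398), a call that ended without tI-3 replicate 2 (adjusted p = 0.0523). It was higher in Ind-8 than in tI-3 by 0.36 ± 0.12 (adjusted p = 0.0485). That call ended without any of Ind-8 replicate 1 (0.132), Ind-8 replicate 2 (0.117), Con-3 replicate 1 (0.0564), Con-3 replicate 2 (0.0682), Con-3 replicate 3 (0.0539) or tI-3 replicate 2 (0.313, with a change of 0.24). The lactate exporter gene Slc16a3 was not called in any comparison.

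Upper glycolysis, from hexokinase to triose phosphate isomerase, was covered by 9 genes. In Ind-8 against Con-3, 3 were higher and 1 lower (33.3% and 11.1%, against 10.9% and 11.0% of all probe sets). The 3 higher were Hk1, Pfkm and Tpi1. With the hybridization-control covariate all of these calls ended, and none of the 9 genes was called higher. Without Ind-8 replicate 2 those of Pfkm and Tpi1 ended. Higher in Ind-8 than in tI-3 were 2 genes, Hk1 and Hk2 (22.2% against 15.6%), and both calls ended with the covariate. In tI-3 against Con-3, 3 were lower (33.3% against 15.1%). Hk2, the inducible hexokinase, had 9.04, 8.70 and 8.75 in Ind-8, between 8.99 and 9.03 in Con-3, and 8.25 and 8.12 in tI-3. Both tI-3 arrays lay below every other array, while Ind-8 and Con-3 overlapped. Hk2 was lower in tI-3 than in Con-3 by a log2 change of -0.83 ± 0.12 (limma, Benjamini-Hochberg adjusted p = 0.000729) and higher in Ind-8 than in tI-3 by 0.65 ± 0.12 (adjusted p = 0.00323). The second call ended with the hybridization-control covariate. The Hk2 values were shared by 2 other probe sets without a gene name. Pfkp stood at 5.94, 6.24 and 5.86 in Ind-8, 7.13, 6.92 and 6.70 in Con-3, and 6.22 and 6.12 in tI-3. Con-3 lay above both lines with p53, which overlapped each other. Its log2 change was -0.90 ± 0.13 in Ind-8 (limma, Benjamini-Hochberg adjusted p = 0.00108) and -0.75 ± 0.15 in tI-3 (adjusted p = 0.00441) against Con-3.

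Hk1, the constitutive hexokinase, was higher in Ind-8 by 0.44 ± 0.10 against Con-3 (limma, Benjamini-Hochberg adjusted p = 0.0116) and by 0.45 ± 0.11 against tI-3 (adjusted p = 0.015); the call against tI-3 ended without tI-3 replicate 2 (0.102). The muscle-type phosphofructokinase Pfkm was higher in Ind-8 than in Con-3 by 0.36 ± 0.09 (adjusted p = 0.014), a call that ended without Ind-8 replicate 2 (0.0578). Tpi1, which interconverts the triose phosphates, was higher by 0.25 ± 0.08 (adjusted p = 0.0476), and its call ended without any single one of the 8 arrays, with adjusted p from 0.0597 to 0.124. The liver-type Pfkl was lower in tI-3 than in Con-3 by a log2 change of -0.45 ± 0.14 (adjusted p = 0.0416). This call ended without Ind-8 replicate 1 (0.0546), Con-3 replicate 2 (0.131), Con-3 replicate 3 (0.079), tI-3 replicate 1 (0.196) or tI-3 replicate 2 (0.1). In Ind-8 against tI-3, Pfkl had 0.40 (adjusted p = 0.0546) and was called without Ind-8 replicate 2 (0.0407) or Con-3 replicate 1 (0.0405). Gpi1, Aldoa and Aldoc were not called, though Aldoc was called lower in tI-3 than in Con-3 without tI-3 replicate 2 (0.037), with the hybridization-control covariate (0.0405) and after quantile normalization again (0.0176). After the latter it was also called higher in Ind-8 than in tI-3 (0.03), with a change of 0.38 in place of 0.19. Aldoa, Tpi1 and Pkm have near-identical copies elsewhere in the genome that probes may also read, so their levels are uncertain on that account.

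Of the 6 genes of lower glycolysis, 2 had a named probe set, Eno2 and the pyruvate kinase Pkm. Eno2, an enolase best known from neurons, had 8.58, 8.90 and 8.12 in Ind-8, 6.22, 6.72 and 5.68 in Con-3, and 8.11 and 7.82 in tI-3. Con-3 lay well below both lines with p53, while Ind-8 replicate 3 and tI-3 replicate 1 nearly met. Eno2 was higher by 2.32 ± 0.25 in Ind-8 (limma, Benjamini-Hochberg adjusted p = 0.000196) and by 1.76 ± 0.28 in tI-3 (adjusted p = 0.00141) against Con-3. Ind-8 and tI-3 differed by 0.56 ± 0.28, which was not called (adjusted p = 0.149). Pkm was not called. Its line means were 13.33 in Ind-8, 13.34 in Con-3 and 13.05 in tI-3. Of the lactate dehydrogenases, Ldhb, the subunit that prevails in heart, was higher in Ind-8 than in Con-3 by 0.70 ± 0.16 (limma, Benjamini-Hochberg adjusted p = 0.00988) and was not called in the other comparisons.

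**Figure D3:**
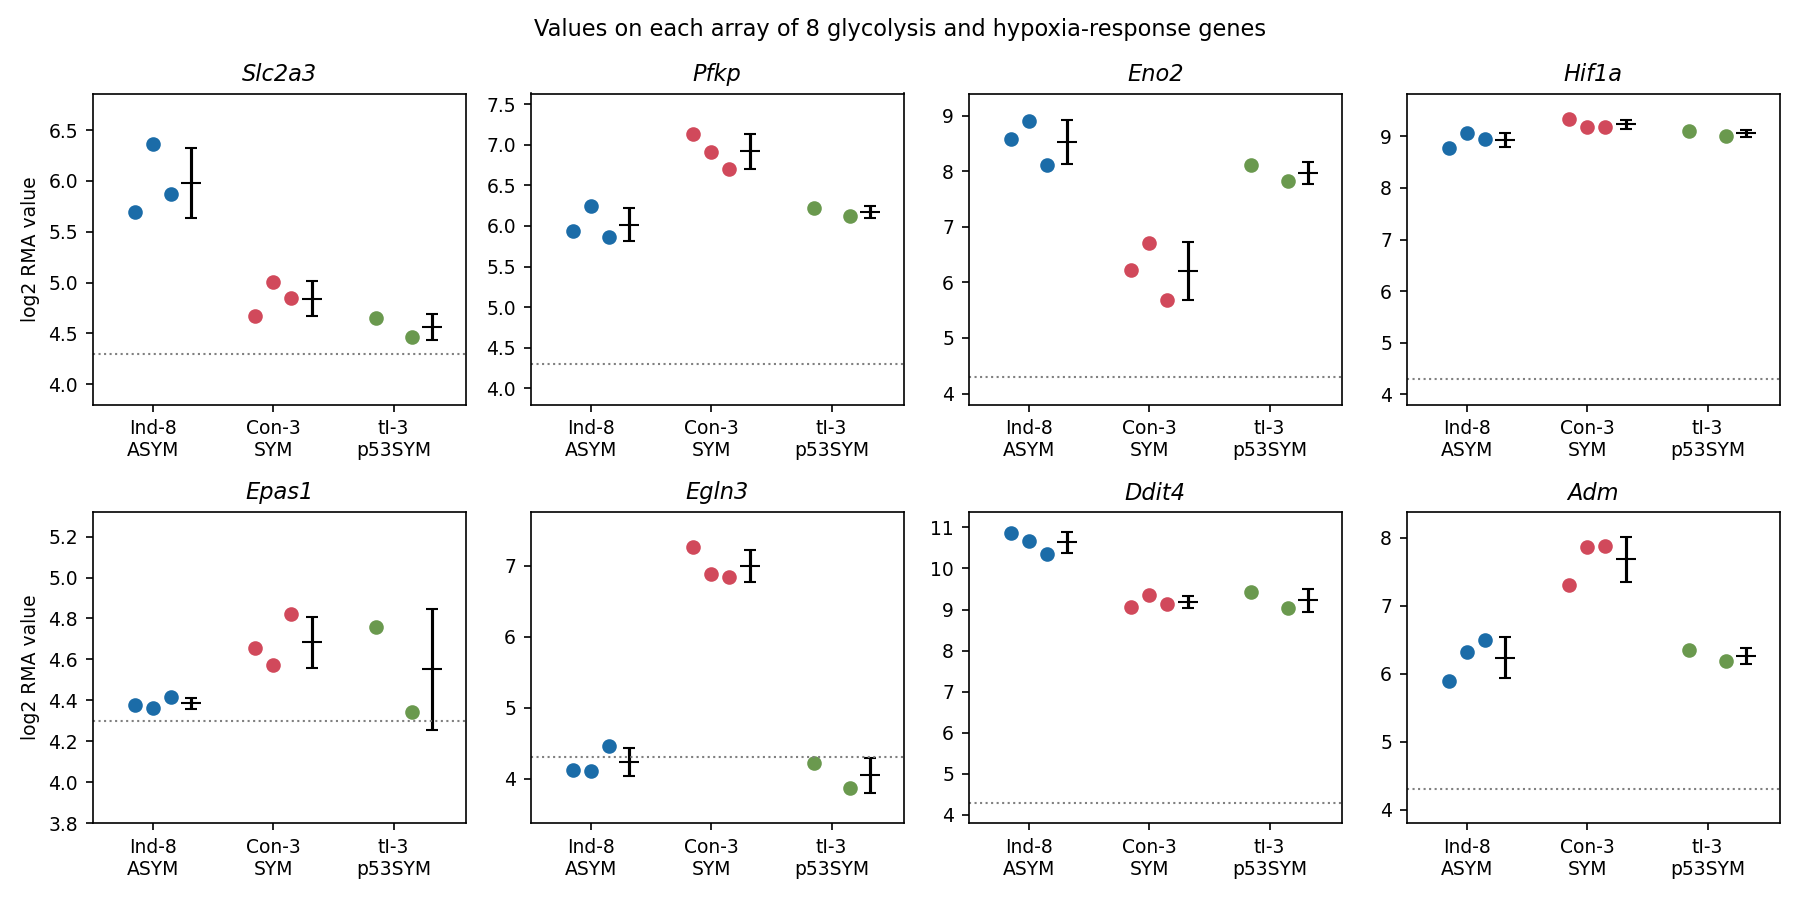
Log2 level on each array of the genes with a called change of 1 or more and of Pfkp, Hif1a and Epas1, with 1 point per array, the mean and SD of each line as a bar and the dim end (4.30) as a dotted line. For Egln3 the 3 Con-3 arrays lie at 6.85 to 7.26, and the other 5 arrays lie between 3.87 and 4.46.

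Among the 3 regulators of flux, Pfkfb4, which sets the level of fructose 2,6-bisphosphate, was higher in Ind-8 than in tI-3 by 0.47 ± 0.13 (limma, Benjamini-Hochberg adjusted p = 0.022). The call ended without Ind-8 replicate 1 (0.0625) and without tI-3 replicate 1 (0.177, with a change of 0.24). The tI-3 arrays read 6.56 and 7.01, and without tI-3 replicate 2 Pfkfb4 was also called lower in tI-3 than in Con-3 (0.0238). Pfkfb3, a second enzyme of this kind, and Pdk1, which restrains pyruvate dehydrogenase, were not called.

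In oxygen sensing, Egln3 (PHD3, a HIF prolyl hydroxylase and itself a hypoxia-induced gene) showed the largest difference of the 29 genes. It had 4.12, 4.11 and 4.46 in Ind-8, 7.26, 6.89 and 6.85 in Con-3, and 4.22 and 3.87 in tI-3. Con-3 was far above the other lines, whose means of 4.23 and 4.05 were at the dim end of the arrays. Against Con-3 its log2 change was -2.77 ± 0.15 in Ind-8 (limma, Benjamini-Hochberg adjusted p = 2.2e-06) and -2.95 ± 0.16 in tI-3 (adjusted p = 3.09e-06). Since both p53 lines had means under 4.30, the level is at least 6.5-fold lower, with the dim end put in place of the dimmer mean. Egln1 (PHD2, the main HIF prolyl hydroxylase) was lower in tI-3 than in Con-3 by a log2 change of -0.67 ± 0.11 (limma, Benjamini-Hochberg adjusted p = 0.00143). In Ind-8 it was higher than in tI-3 by 0.40 ± 0.11 (adjusted p = 0.0201). That call ended without Ind-8 replicate 1 (0.0608), tI-3 replicate 1 (0.0788) or tI-3 replicate 2 (0.0939).

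The HIF alpha subunits were not called. Hif1a read 8.78, 9.07 and 8.95 in Ind-8, 9.33, 9.18 and 9.18 in Con-3, and 9.11 and 9.01 in tI-3, so that Ind-8 lay below Con-3 without overlap. Its log2 change in Ind-8 against Con-3, -0.30 ± 0.10, had an adjusted p of 0.0533 by limma with Benjamini-Hochberg adjustment, and was called without Ind-8 replicate 2 (0.0443). It was also called with a trend in the prior (0.0402), over probe sets above the 25th percentile (0.0446), over curated transcripts (0.0488) and after quantile normalization again (0.0289). Epas1 (HIF-2 alpha) read 4.38, 4.36 and 4.42 in Ind-8, 4.66, 4.57 and 4.82 in Con-3, and 4.76 and 4.34 in tI-3, all close to the dim end. Its change of -0.30 ± 0.12 in Ind-8 against Con-3 was not called (limma, Benjamini-Hochberg adjusted p = 0.102). HIF activity is set mainly by protein stability, which these arrays do not read.

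Of 8 further hypoxia-response genes, 7 had a named probe set. Ddit4 (REDD1, an inhibitor of mTORC1 signalling) had 10.87, 10.67 and 10.36 in Ind-8, 9.06, 9.35 and 9.12 in Con-3, and 9.42 and 9.03 in tI-3. All Ind-8 arrays were above all others, and Con-3 and tI-3 overlapped. It was higher in Ind-8 by 1.45 ± 0.15 against Con-3 (limma, Benjamini-Hochberg adjusted p = 0.000148) and by 1.41 ± 0.17 against tI-3 (adjusted p = 0.00032), and was 0.04 ± 0.17 in tI-3 against Con-3 (adjusted p = 0.875). Adm (adrenomedullin) had 5.90, 6.32 and 6.49 in Ind-8, 7.30, 7.87 and 7.88 in Con-3, and 6.35 and 6.18 in tI-3. Con-3 lay above the other lines, which overlapped. The log2 change of Adm against Con-3 was -1.45 ± 0.18 in Ind-8 (limma, Benjamini-Hochberg adjusted p = 0.000472) and -1.42 ± 0.20 in tI-3 (adjusted p = 0.000754).

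Vegfa, which drives vessel growth, had probe sets with 2 distinct sets of values, and neither was called, with log2 changes of 0.27 and 0.49 in Ind-8 against Con-3. Ndrg1, Car9 (carbonic anhydrase IX), Ankrd37 and Higd1a were not called. Ndrg1 read 8.60, 9.37 and 9.27 in Con-3, and without Con-3 replicate 1 it was called lower in Ind-8 (limma, Benjamini-Hochberg adjusted p = 0.0111) and in tI-3 (0.00141) against Con-3 and higher in Ind-8 than in tI-3 (0.0441). Higd1a was called lower in tI-3 than in Con-3 without Con-3 replicate 3 (0.0304), and in Ind-8 than in Con-3 with the hybridization-control covariate (0.032). The hypoxia-response genes thus held both directions, with Ddit4 higher in Ind-8 and Adm and Egln3 lower in both lines with p53. These 2 lines share descent and do not count as independent.

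**Figure D4:**
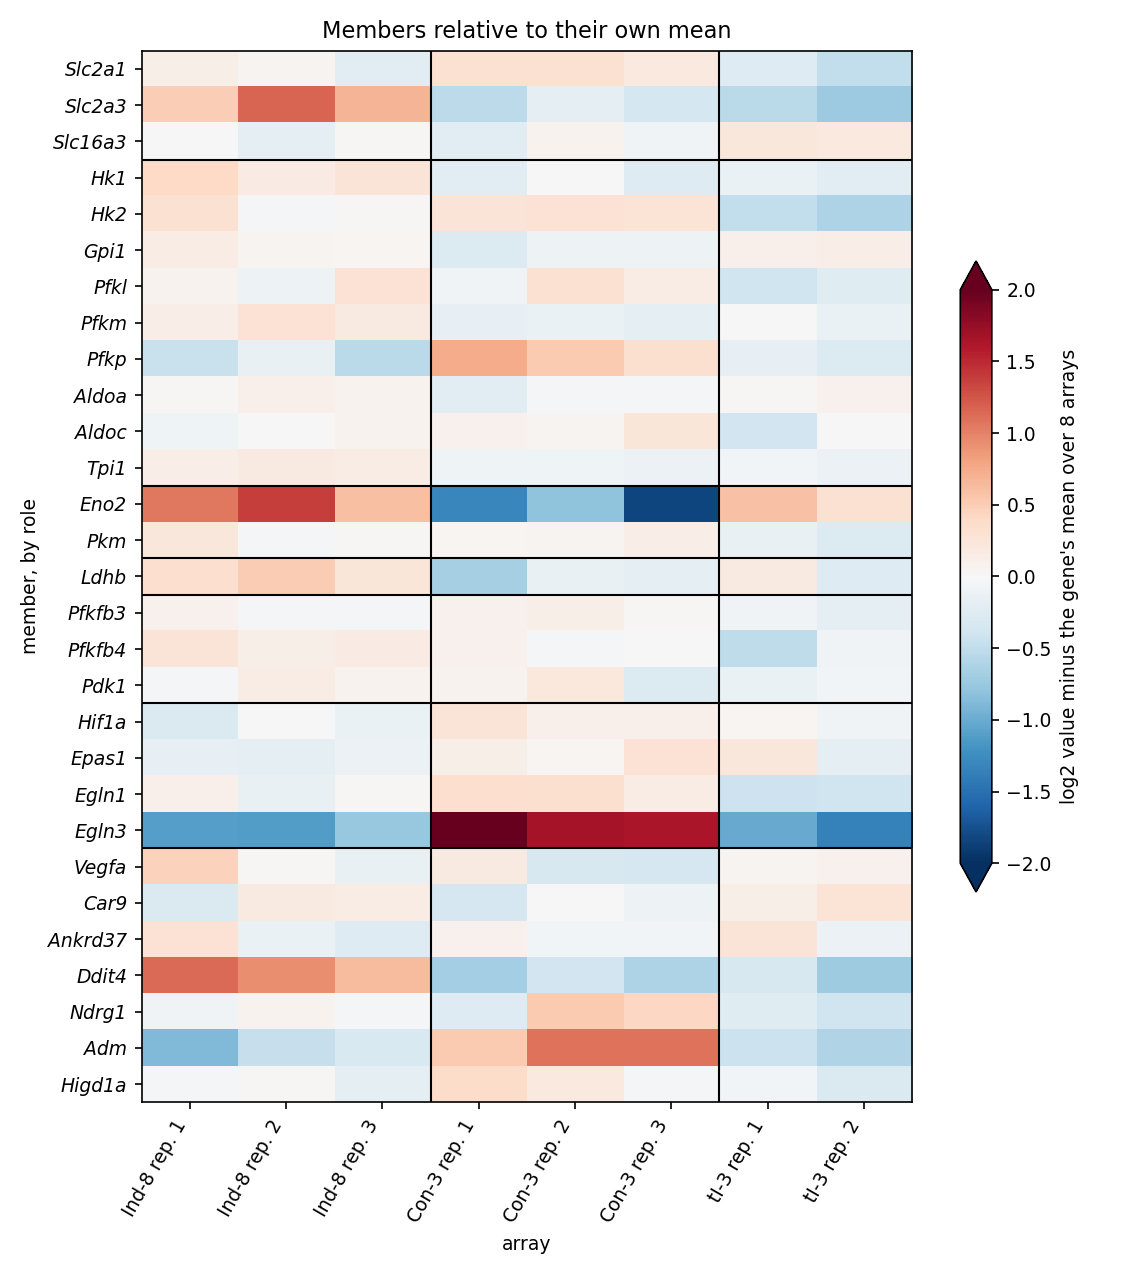
Level of the 29 genes on each of the 8 arrays as the deviation in log2 from the gene's mean over arrays, genes ordered by role. Egln3 and Adm are high on the 3 Con-3 arrays, and Ddit4 and Slc2a3 are high on the 3 Ind-8 arrays.

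The promoters of Ddit4, Eno2, Egln3, Adm and Pfkp are shown because these 5 genes were called in 2 comparisons each and in each of 19 other limma fits of those comparisons, as was Slc2a3. RefSeq windows (GRCm38.p6) from 250 bases before to 50 after the start were searched on both strands for ACGTG and GCGTG, the core of the hypoxia response element. The core overlaps the E-box CACGTG, which none of the 5 windows holds. Capitals mark the matches, read on the gene's strand, so that a match on the other strand appears as CACGT or CACGC. Slc2a3, Ndrg1 and Epas1 are named only.
Ddit4: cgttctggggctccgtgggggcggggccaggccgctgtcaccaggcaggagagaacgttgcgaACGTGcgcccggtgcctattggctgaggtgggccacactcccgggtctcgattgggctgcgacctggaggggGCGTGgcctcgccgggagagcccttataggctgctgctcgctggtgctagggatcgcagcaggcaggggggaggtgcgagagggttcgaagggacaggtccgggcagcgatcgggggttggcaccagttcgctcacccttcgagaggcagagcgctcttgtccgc
Eno2: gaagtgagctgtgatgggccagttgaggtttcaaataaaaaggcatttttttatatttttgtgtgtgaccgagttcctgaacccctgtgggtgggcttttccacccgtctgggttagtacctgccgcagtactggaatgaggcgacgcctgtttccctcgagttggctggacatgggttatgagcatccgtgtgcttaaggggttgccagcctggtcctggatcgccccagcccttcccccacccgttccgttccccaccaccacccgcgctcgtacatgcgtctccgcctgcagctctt
Egln3: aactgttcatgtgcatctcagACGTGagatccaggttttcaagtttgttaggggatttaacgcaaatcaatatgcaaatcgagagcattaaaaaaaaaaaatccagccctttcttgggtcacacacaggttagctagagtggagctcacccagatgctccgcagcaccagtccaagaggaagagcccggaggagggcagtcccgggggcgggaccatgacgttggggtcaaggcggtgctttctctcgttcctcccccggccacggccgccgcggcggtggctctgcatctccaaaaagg
Adm: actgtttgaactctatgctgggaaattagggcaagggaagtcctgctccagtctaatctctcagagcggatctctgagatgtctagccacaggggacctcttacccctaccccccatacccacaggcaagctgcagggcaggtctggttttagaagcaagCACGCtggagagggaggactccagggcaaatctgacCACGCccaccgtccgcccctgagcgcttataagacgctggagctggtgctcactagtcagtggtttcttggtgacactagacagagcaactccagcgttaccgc
Pfkp: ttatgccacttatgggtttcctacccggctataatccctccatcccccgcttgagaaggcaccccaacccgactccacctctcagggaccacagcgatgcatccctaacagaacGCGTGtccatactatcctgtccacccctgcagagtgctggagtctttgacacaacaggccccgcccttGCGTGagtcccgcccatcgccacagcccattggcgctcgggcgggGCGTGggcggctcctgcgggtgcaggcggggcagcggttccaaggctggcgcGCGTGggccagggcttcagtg
Ddit4 (chr10:59951721-59952020, minus strand) held 2 matches, starting 187 and 115 bases before the start. Egln3 (chr12:54203825-54204124, minus strand) held 1, at 229 bases before. Adm (chr7:110627407-110627706, plus strand) held 2, at 90 and 54 bases before. Pfkp (chr13:6648722-6649021, minus strand) held 4, at 136, 68 and 23 bases before and 29 after. Eno2 (chr6:124769624-124769923, minus strand) held 0, which says only that these letters are not in this window. Matches were found in 37 of 46 windows of the listed genes (80.4%) and in 14380 of 32851 windows of all genes (43.8%). By gene, 29 of 32 with a window (90.6%) held a match, against 12628 of 27025 (46.7%). Among genes on the arrays, 12 of 14 called genes (85.7%) and 11 of 12 not called (91.7%) held one. The windows were not matched for base content, and the listed genes include known hypoxia-response targets, so the higher share is a description only. A match is a description of sequence and was not tested for binding.

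Further pathway genes were taken from 6 lists. Of 33 other glycolysis and glucose genes, 4 were higher and 1 lower in Ind-8 against Con-3 (12.1% and 3.03%, against 10.9% and 11.0% of all probe sets). The counts were 8 and 5 in Ind-8 against tI-3 (24.2% and 15.2%, against 15.6% and 15.5%), and in tI-3 against Con-3 2 and 6 (6.06% and 18.2%, against 10.2% and 15.1%). The median changes were 0.00, -0.07 and 0.08. Slc2a10, a glucose transporter gene, was higher in Ind-8 by 0.83 ± 0.14 against Con-3 and by 1.55 ± 0.15 against tI-3, and its change of -0.72 ± 0.15 in tI-3 against Con-3 lost its call without tI-3 replicate 2 (limma, Benjamini-Hochberg adjusted p = 0.0674). Eno3, the muscle enolase, was higher by 0.69 ± 0.09 and 1.29 ± 0.11 in the same comparisons of Ind-8. Slc2a9, a urate and sugar transporter, was higher in Ind-8 than in Con-3 by 0.72 ± 0.19, a call that ended without Ind-8 replicate 2 (0.0838), Con-3 replicate 1 (0.0649) or Con-3 replicate 2 (0.0794). Pck2, mitochondrial PEP carboxykinase, was lower in tI-3 than in Con-3 by a log2 change of -1.02 ± 0.20. Pgm3, which makes a precursor of UDP-N-acetylglucosamine, had changes of 0.87 ± 0.17 in Ind-8 against tI-3 and -0.88 ± 0.17 in tI-3 against Con-3, which became 0.53 and -0.55 without tI-3 replicate 2. Tigar, a p53-induced bisphosphatase, had -0.02, 0.07 and -0.09 in the 3 comparisons and was not called. The 8 genes higher in Ind-8 against tI-3 became 5 without Ind-8 replicate 1, Ind-8 replicate 2 or tI-3 replicate 2, and the 5 lower became 3 without Ind-8 replicate 1 or 3 and 1 without tI-3 replicate 2. The 1 gene lower in Ind-8 against Con-3 became 0 without Ind-8 replicate 2 or Con-3 replicate 3 and 2 without Con-3 replicate 1. The 2 higher in tI-3 against Con-3 became 1 without Con-3 replicate 1 or tI-3 replicate 2, 4 without Con-3 replicate 3 and 5 without tI-3 replicate 1. With the hybridization-control covariate, the 8 higher and 5 lower in Ind-8 against tI-3 became 2 (Slc2a10 and Eno3) and 0, the call of Pgm3 there ended (0.218), the 1 lower in Ind-8 against Con-3 became 0, and the 2 higher in tI-3 against Con-3 became 1. Those counts of 0 by limma were 2 and 1 at an unadjusted p under 0.05 and 0 by the rank product. Quantile normalization again gave 5 higher and 3 lower in Ind-8 against tI-3 and 1 higher in tI-3 against Con-3.

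Pyruvate entry into mitochondria was covered by 13 of 14 genes, of which 1 was higher and 3 lower in Ind-8 against Con-3 (7.69% and 23.1%, against 10.9% and 11.0% of all probe sets). Against tI-3 the counts for Ind-8 were 2 and 1 (15.4% and 7.69%, against 15.6% and 15.5%), and in tI-3 against Con-3 0 and 4 (0 and 30.8%, against 10.2% and 15.1%). The median changes were 0.01, 0.16 and -0.14. The count of 0 higher was 1 at an unadjusted p under 0.05 and 0 by the rank product. Pdk4, a kinase that inhibits pyruvate dehydrogenase, was higher in Ind-8 than in Con-3 by 1.23 ± 0.16 (limma, Benjamini-Hochberg adjusted p = 0.000517) and than in tI-3 by 1.86 ± 0.17 (adjusted p = 8.88e-05), where tI-3 was at the dim end and the fold is at least 3.17. It was at least 1.35-fold lower in tI-3 than in Con-3, a call lost without Con-3 replicate 1 (0.0611), Con-3 replicate 3 (0.0663), tI-3 replicate 1 (0.093) or tI-3 replicate 2 (0.123). Pdha1, a catalytic subunit of that dehydrogenase, changed by -0.47 ± 0.11, 0.56 ± 0.13 and -1.04 ± 0.13 in the 3 comparisons, the second losing its call without tI-3 replicate 2 (0.0795). Pcx (pyruvate carboxylase) was lower in Ind-8 by log2 changes of -0.38 against Con-3 and -0.55 against tI-3, the first call ending without Con-3 replicate 2 (0.0596) or 3 (0.0547). Pdk3 had -0.42 in tI-3 against Con-3, a call that ended without tI-3 replicate 1 (0.0545) or 2 (0.0799), and in Ind-8 against Con-3 it was called without Ind-8 replicate 3 (0.0475). The 3 lower in Ind-8 against Con-3 became 1 without Con-3 replicate 2 or 3, and the 1 higher became 2 without Ind-8 replicate 1. The 2 higher in Ind-8 against tI-3 became 1 without tI-3 replicate 2 and the 1 lower became 2 without Ind-8 replicate 3. The 4 lower in tI-3 against Con-3 became 2 without tI-3 replicate 1 and 1 without tI-3 replicate 2. Fitting the hybridization-control covariate left 1 lower in Ind-8 against Con-3, without Pcx (0.0824), and in Ind-8 against tI-3 1 higher, Pdk4, and by limma 0 lower. Pdha1 (0.192) and Pcx (0.187) lost their calls there, and the 0 lower was 1 at an unadjusted p under 0.05 and 0 by the rank product. After quantile normalization again, 1 gene was higher and 2 were lower in tI-3 against Con-3, and the call of Pdk3 there ended (0.0515).

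All 10 genes of the pentose phosphate pathway had a probe set, with 1 higher and 2 lower in Ind-8 against Con-3 (10.0% and 20.0%, against 10.9% and 11.0% of all probe sets). Between Ind-8 and tI-3, 4 were higher in Ind-8 and 0 lower (40% and 0, against 15.6% and 15.5%), and in tI-3 against Con-3 0 and 4 (0 and 40%, against 10.2% and 15.1%). The medians were 0.04, 0.27 and -0.29. The counts of 0 by limma were 0 lower and 1 higher at an unadjusted p under 0.05 and 0 by the rank product. G6pdx, the entry enzyme, was higher in Ind-8 than in Con-3 by 0.56 ± 0.10 (limma, Benjamini-Hochberg adjusted p = 0.00378). Prps1 and Rpia had log2 changes of -0.61 ± 0.09 and -0.57 ± 0.12 in Ind-8 and of -0.74 ± 0.10 and -0.83 ± 0.13 in tI-3 against Con-3. Prps2, which like Prps1 makes phosphoribosyl pyrophosphate, had -0.68 ± 0.13 in tI-3 against Con-3. In Ind-8 against tI-3, Taldo1, Pgd and Prps2 were higher by 0.53, 0.52 and 0.45. Without tI-3 replicate 2, all 4 calls there ended, with adjusted p of 0.107 for Taldo1, 0.117 for Pgd and 0.168 for Prps2, and that of Prps2 also ended without Ind-8 replicate 2 (0.0582). Without Ind-8 replicate 2 Prps2 was called lower in Ind-8 than in Con-3 (0.043). Pgd was called lower in tI-3 than in Con-3 without Ind-8 replicate 1 (0.0422) or 3 (0.0373). Taldo1 was called higher in Ind-8 than in Con-3 without Con-3 replicate 2 (0.049) or either tI-3 array (0.0495), so the 1 gene higher there became 2. The hybridization-control covariate also ended all 4 calls in Ind-8 against tI-3, with adjusted p of 0.24 for Taldo1, 0.353 for Pgd and 0.447 for Prps2. That count of 0 higher by limma was 2 at an unadjusted p under 0.05 and 0 by the rank product. After quantile normalization again Taldo1 was called higher in Ind-8 than in Con-3 (0.0429) and G6pdx in tI-3 than in Con-3 (0.0202), and the call of Prps2 in Ind-8 against tI-3 ended (0.106).

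Of 15 regulators of HIF, 14 had a named probe set, with 0 higher and 1 lower in Ind-8 against Con-3 (0 and 7.14%, against 10.9% and 11.0% of all probe sets). Against tI-3, 2 were higher in Ind-8 and 1 lower (14.3% and 7.14%, against 15.6% and 15.5%), and in tI-3 against Con-3 0 and 3 (0 and 21.4%, against 10.2% and 15.1%). The medians were -0.06, 0.09 and -0.07. Each count of 0 by limma was 1 at an unadjusted p under 0.05 and 0 by the rank product. Cul2, the scaffold of the ligase that marks HIF for destruction, changed by -0.62 ± 0.09, 0.65 ± 0.10 and -1.27 ± 0.10 in the 3 comparisons, the last with a limma, Benjamini-Hochberg adjusted p of 2.43e-05. Vhl, the substrate-binding subunit of that ligase, had -0.48 ± 0.11 in tI-3 against Con-3, a call that ended without tI-3 replicate 1 (0.0603), and was called higher in Ind-8 than in tI-3 without Ind-8 replicate 1 (0.0491). Egln2 had -0.35 in Ind-8 against tI-3, lost without Ind-8 replicate 1 (0.0648), Ind-8 replicate 2 (0.0826) or tI-3 replicate 2 (0.22). Siah1a had 0.32 in the same comparison, and its call ended without any 1 of the Ind-8 or tI-3 arrays or Con-3 replicate 2, with adjusted p from 0.0521 to 0.268. Cited2 had -0.30 in tI-3 against Con-3, and its call ended without any 1 array other than Ind-8 replicate 1, with adjusted p from 0.0512 to 0.19. The 0 higher in Ind-8 against Con-3 became 1 without Ind-8 replicate 3 or Con-3 replicate 1, and the 1 lower became 2 without Ind-8 replicate 3 or either tI-3 array. The 2 higher in Ind-8 against tI-3 became 1 without Ind-8 replicate 2 or 3, Con-3 replicate 2 or either tI-3 array. The 3 lower in tI-3 against Con-3 became 1 without tI-3 replicate 1. When the hybridization-control covariate was fitted, all calls in Ind-8 against tI-3 ended, those of Cul2 (0.0909), Siah1a (0.768) and Egln2 (0.538), as did that of Cited2 (0.12). The 0 higher and 0 lower by limma were then 2 and 0 at an unadjusted p under 0.05 and 0 by the rank product. Quantile normalization again gave 3 lower in Ind-8 against Con-3, 1 higher in Ind-8 against tI-3, without Siah1a (0.263), and 1 higher in tI-3 against Con-3, Egln2 (0.039), while Cited2 lost its call (0.234).

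Of 45 other hypoxia-response genes, 43 had a named probe set. In Ind-8 against Con-3 7 were higher and 7 lower (16.3% each, against 10.9% and 11.0% of all probe sets). The counts were 12 and 6 in Ind-8 against tI-3 (27.9% and 14.0%, against 15.6% and 15.5%) and 4 and 10 in tI-3 against Con-3 (9.30% and 23.3%, against 10.2% and 15.1%). The medians were -0.05, 0.09 and -0.02. Hmox1 (heme oxygenase) was higher in Ind-8 by 2.25 ± 0.20 against Con-3 (limma, Benjamini-Hochberg adjusted p = 7.94e-05) and by 1.33 ± 0.23 against tI-3 (adjusted p = 0.0025), and its 0.93 in tI-3 against Con-3 lost its call without tI-3 replicate 1 (0.0922) or 2 (0.0552). Loxl2, a lysyl oxidase, had log2 changes of -1.79 ± 0.17 in Ind-8 and -1.73 ± 0.19 in tI-3 against Con-3. Both p53 lines were at the dim end for Loxl2, at least 3.30-fold lower. The transferrin receptor gene Tfrc was lower in Ind-8 by log2 changes of -1.22 ± 0.21 against Con-3 and -1.27 ± 0.24 against tI-3. Car12 (carbonic anhydrase XII) and Edn1 (endothelin) had -1.84 ± 0.16 and -1.22 ± 0.18 in tI-3 against Con-3. Car12 was also higher in Ind-8 than in tI-3 by 0.62, a call lost without tI-3 replicate 1 (0.054) or 2 (0.0973). Without tI-3 replicate 2 the 12 and 6 called in Ind-8 against tI-3 became 6 and 3, and the 4 higher in tI-3 against Con-3 became 2 without either tI-3 array. None of the 12 and 6 stayed called by limma with the hybridization-control covariate, where Hmox1 had an adjusted p of 0.175, Tfrc of 0.0873 and Car12 of 0.0911. In that fit 7 were higher and 5 lower at an unadjusted p under 0.05, and the rank product called 1 higher and 1 lower. The same covariate left 4 of the 7 higher in Ind-8 against Con-3.

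All 16 metabolic genes linked to p53 had a probe set, with 4 higher and 0 lower in Ind-8 against Con-3 (25% and 0, against 10.9% and 11.0% of all probe sets). There were 7 and 1 in Ind-8 against tI-3 (43.8% and 6.25%, against 15.6% and 15.5%), and in tI-3 against Con-3 3 and 4 (18.8% and 25%, against 10.2% and 15.1%). The medians were -0.04, 0.31 and -0.11. The 0 lower by limma was 1 at an unadjusted p under 0.05 and 0 by the rank product, and became 1 without Ind-8 replicate 1. Cpt1c, a carnitine palmitoyltransferase, was higher by 2.27 ± 0.11 in Ind-8 against Con-3 (limma, Benjamini-Hochberg adjusted p = 1.27e-06), by 1.40 ± 0.13 in Ind-8 against tI-3 and by 0.87 ± 0.13 in tI-3 against Con-3. Lpin1, which makes diacylglycerol, was higher in Ind-8 than in Con-3 by 1.02 ± 0.09. Acad11, an acyl-CoA dehydrogenase, was higher in Ind-8 by 0.71 ± 0.13 against Con-3 and by 1.01 ± 0.14 against tI-3. Sesn2, a stress-induced inhibitor of mTORC1, was higher in Ind-8 than in tI-3 by 1.09 ± 0.29, lost without Ind-8 replicate 2 (0.0602) or tI-3 replicate 1 (0.129), and was called against Con-3 without Ind-8 replicate 1 (0.0174) or Con-3 replicate 2 (0.0445). Rrad and Sesn1 had log2 changes of -0.99 ± 0.15 and -0.91 ± 0.11 in tI-3 against Con-3. The 1 gene lower in Ind-8 against tI-3 became 0 without either tI-3 array. Under the hybridization-control covariate, the 7 and 1 there became 2 (Cpt1c and Rrad) and 0, with Acad11 at an adjusted p of 0.0756 and Sesn2 at 0.0911. The 0 lower by limma was 2 at an unadjusted p under 0.05 and 0 by the rank product, and after quantile normalization again 2 were lower.

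**Figure D5:**
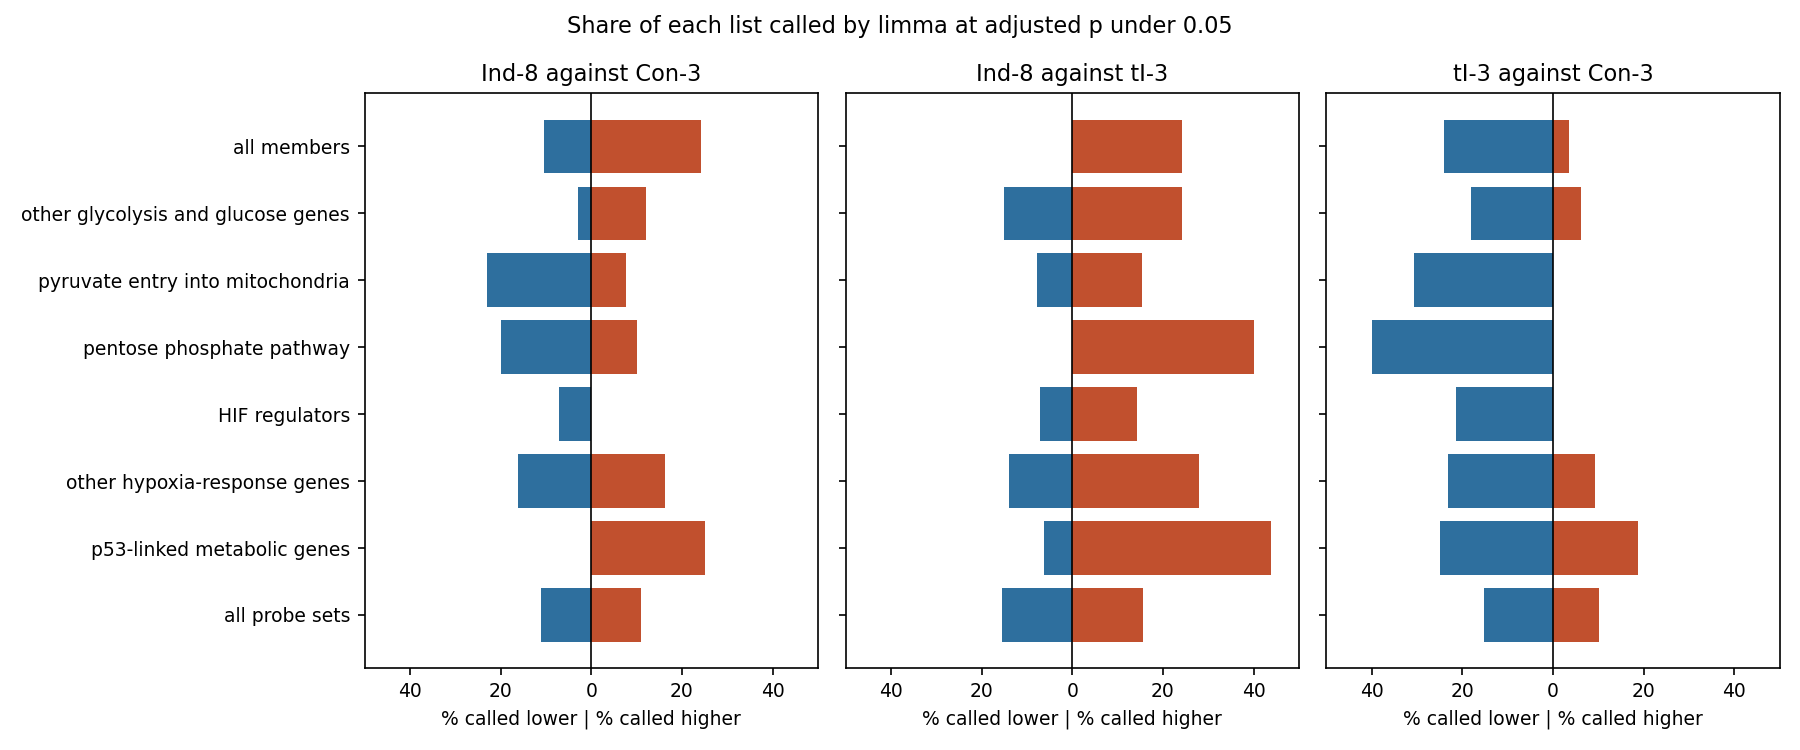
Percent of genes called higher and lower by limma in each gene list and over all 22523 probe sets, in the 3 comparisons. In Ind-8 against tI-3, 24.1% of the 29 genes are higher and 0 are lower, and 15.6% and 15.5% of all probe sets are.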

How the data were processed

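Expression was measured on 8 Affymetrix mouse arrays, 3 of Ind-8, 3 of Con-3 and 2 of tI-3, grouped by their labels. The authors ran RMA (named in the submitters' processing notes) in R, with probes regrouped by RefSeq transcript, and deposited log2 values. These values were used without renormalization, and the 64 control probe sets of the manufacturer did not enter the tests. Arrays have no sequencing depth, and the number of replicates limits the precision. Gene names came from a RefSeq table of GRCm38.p6, used for names and promoter windows, which named 18294 of 22523 probe sets. For each gene, probe sets with identical values were counted once.

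A linear model with 1 mean per line was fitted in limma 3.58.1 (R 4.3.3) to all 8 arrays. P-values were adjusted by Benjamini-Hochberg across the 22523 probe sets and called under 0.05. The SE is that of the model. An adjusted p in parentheses after a left-out array comes from the same test. The rank product that the study's methods name was rewritten from its published description in Python 3.11.15 (numpy 2.4.6, pandas 2.3.3, scipy 1.17.1), with 100 permutations and calls at a percentage of false positives under 0.05. Both tests were tried on simulated data. Figures were drawn with matplotlib 3.10.9. Line means under the 25th percentile of probe-set means were taken as dim, and a fold against a dim line is given as a lower bound, beside which the log2 change of the fitted values may stand.

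Values on every array were given for genes called with a log2 change of 1 or more and for Gapdh, Hif1a and Epas1. Hk2 and Pfkp were added after their values were seen. From each list, up to 3 called genes with the largest change per comparison were named, and Tigar. The values of 1 listed gene are not reported here. The members and lists were chosen with earlier results of these data known. Alternatives were the rank product, a minimum change, an adjusted p under 0.01, the compared lines only, a replicate block, a trend in the prior, a hybridization-control covariate, a filter on dim probe sets, 2 other scalings, control probe sets included, other choices of probe set for a gene, and each array left out. Where 1 tI-3 array was left out, the remaining culture was assumed to vary like the other lines.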

Additional observations from a re-analysis of the deposited data

How the results depend on the processing

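The 21 log2 changes of Slc2a3, Eno2, Egln3, Ddit4, Adm, Hif1a and Epas1 kept their direction and side of the threshold in 445 of 462 alternative values, 6 became called and 11 reversed. Hk2, not among these, lost its call in Ind-8 against tI-3 with the hybridization-control covariate (adjusted p = 0.104). A second tally covered 73 changes. These were the label genes and Tigar in every comparison, and the other genes named from the 6 lists only in the comparisons for which they were named. Direction and side of the threshold were kept in 1436 of 1606 values, while 161 lost their call, 1 became called and 8 reversed. Calls that the list genes gained in other comparisons are not in this tally. Calls of the members were made in all 19 other limma fits for 7 of 10 genes in Ind-8 against Con-3, 2 of 7 in Ind-8 against tI-3 and 6 of 8 in tI-3 against Con-3. For the other lists, 634 of 792 counts stayed within 1.5 times and 158 moved further, of which some are given with the lists. Below stand member counts, probe-set counts and single changes that moved further or reversed, and unless stated the cause was not tested.

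The rank product called 3 members higher and 822 probe sets in Ind-8 against Con-3, 2 higher and 464 in Ind-8 against tI-3, and 2 lower and 520 in tI-3 against Con-3. A minimum change of 1, which by construction calls fewer, gave 3 and 464, 2 and 681, and 2 and 735 in the same order. An adjusted p under 0.01, also stricter by construction, gave 4 higher and 2718 in Ind-8 against Con-3, 3 higher and 3273 in Ind-8 against tI-3, and 3129 probe sets in tI-3 against Con-3. A trend in the prior gave 11 higher in Ind-8 against tI-3 and 2 higher in tI-3 against Con-3. The hybridization-control covariate gave 4 higher and 3062 in Ind-8 against Con-3. In Ind-8 against tI-3, where it ran largely with line, it gave 2 higher and 1020. With it, Eno2 (-0.17), Egln3 (-0.16) and Adm (0.22) reversed in Ind-8 against tI-3, as did Tigar in Ind-8 against Con-3 (0.036) and Mt1 in tI-3 against Con-3 (0.002). Quantile normalization again gave 5 lower in Ind-8 against Con-3, 4 higher in Ind-8 against tI-3, and 2 higher with a median of -0.23 in tI-3 against Con-3. With it, Epas1 (0.0444) and Mt1 (-0.0887) reversed in Ind-8 against tI-3, and Mt1 (0.20) in tI-3 against Con-3.

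With the replicate block, 2 members were higher in tI-3 against Con-3, Ddit4 reversed there (-0.039), and Eno2 was called in Ind-8 against tI-3 (0.80). Probe sets called numbered 5382, 8341 and 6376 in the 3 comparisons, in place of 4942, 7009 and 5715. The deviations of Ind-8 and Con-3 arrays of the same number correlated at 0.27, 0.0286 and 0.381, and those of other numbers at -0.41 to 0.12. Con-3 replicate 2 correlated best with Ind-8 replicate 3 (0.0483). Same-number arrays correlated at 0.0093 and -0.23 for Ind-8 with tI-3, and at 0.20 and 0.0424 for Con-3 with tI-3. Whether the numbers pair the cultures was not settled, and the main fit has no replicate term.

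Over the arrays left out in turn, members higher in Ind-8 against tI-3 ran from 4 to 8, and probe sets called from 2781 to 7261 there and from 3093 to 5625 in tI-3 against Con-3. Median member changes ran from -0.0389 to 0.0427 in Ind-8 against Con-3, 0.178 to 0.244 in Ind-8 against tI-3, and -0.233 to -0.141 in tI-3 against Con-3. Some changes that were not called spanned 0. In Ind-8 against tI-3 these were Adm (-0.16 to 0.14), Epas1 (-0.37 to 0.0439) and Tigar (-0.0373 to 0.18). In tI-3 against Con-3 they were Ddit4 (-0.15 to 0.23), Epas1 (-0.34 to 0.0764), Tigar (-0.20 to 0.0125) and Mt1 (-0.26 to 0.0443). Tigar also did so in Ind-8 against Con-3 (-0.066 to 0.003).

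There were 2 tI-3 arrays, of which replicate 2 had the brightest hybridization controls and the lowest Gapdh controls, and Ind-8 against tI-3 kept the smallest share of its member calls in the other limma fits. For genes at the dim end the fold is a lower bound, and a log2 change given beside it is that of the fitted values.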
